A study of Homo sapiens with 6 samples.

Results

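The genes described here encode the cytosolic ribosomal proteins. They were picked by gene symbol alone, as every RPL or RPS symbol followed by a number (with an A, X or L ending where there is one) together with RPSA, RPLP0, RPLP1 and RPLP2, so that the S6 kinases and the mitochondrial ribosomal proteins are not among them. The rule found 84 of the 17100 transcripts in the deposited table, 52 for the large and 32 for the small subunit. The cells were MDA-MB-231, an established human breast adenocarcinoma line, and RNA sequencing compared 3 vehicle libraries with 3 libraries of cells given guadecitabine, a hypomethylating prodrug of decitabine that traps DNA methyltransferases. The guadecitabine group received 1 µM for 96 hours and were harvested after a further 24 hours without drug, and vehicle cells were cultured in the same medium. All libraries come from this 1 line and no genetic change separates the groups.

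Each ribosome joins a large and a small subunit, and each ribosomal protein is needed in about equal amounts. The cell therefore makes these proteins in step, and many of their mRNAs start with a cytosine followed by a stretch of pyrimidines. This 5′ terminal oligopyrimidine (TOP) tract lets the kinase mTORC1 control their translation. A few ribosomal proteins have paralogs from a second gene, among them RPL22L1, RPL39L, RPL10L and RPL3L, that can be confined to certain tissues and can take the place of the common protein.

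The start sites of some members that rose or fell, and of some paralogs and their partners, are shown. The TOP tract is a sequence that many of these genes share. Each run has 15 bases before and 15 from the annotated start, on the gene's own strand, and the capitals mark the unbroken pyrimidines of a tract that begins with C at the start and is at least 5 bases long. The sequences are RefSeq promoters, from a table of the GRCh38 assembly, placed on GRCh37 by exact match, and the coordinates are GRCh37. Runs without capitals have no such tract at that start.

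RPL22, chr1:6259641-6259670, minus strand: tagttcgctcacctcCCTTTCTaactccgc
RPL22L1, chr3:170587970-170587999, minus strand: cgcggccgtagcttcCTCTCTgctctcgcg
RPL13A, chr19:49990850-49990879, plus strand: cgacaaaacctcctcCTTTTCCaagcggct
RPS6, chr9:19380220-19380249, minus strand: aagcggaagttggccCTCTTTTCCgtggcg
RPL10, chrX:153626391-153626420, plus strand: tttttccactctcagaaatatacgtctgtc
RPL27, chr17:41150421-41150450, plus strand: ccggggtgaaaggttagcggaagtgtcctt
RPL7L1, chr6:42847339-42847368, plus strand: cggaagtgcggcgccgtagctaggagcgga
RPS27, chr1:153963223-153963252, plus strand: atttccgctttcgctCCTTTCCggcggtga
RPS27L, chr15:63449662-63449691, minus strand: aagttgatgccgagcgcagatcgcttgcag

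A promoter could be matched for 65 members. Of these, 41 (63.1%) held the tract at the start closest to that of the deposited transcript, against 4.07% of 35116 promoters in the table. Counting any start listed for a member, whether or not its promoter could be matched, gave 47 members. RPL10 is among them, since another of its listed starts has the tract. The tract thus depends on the start taken. The RPL7L1 start shown lies 317 bp from the deposited one. CG dinucleotides, the sites that DNA methyltransferases modify, numbered a median of 23 in the 300 bases of the members' promoters (range 6 to 38) and 14 in those of all promoters, counted on the strand shown. Methylation of these promoters is not analysed here.

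Library totals ranged from 8792127 to 22277442 reads, the lowest in guadecitabine replicate 2. The 5 markers expected to be high in this line (VIM, CD44, EGFR, CAV1 and MSN) summed to 110267 or more normalized counts in every library. Of these, VIM and CD44 rose after guadecitabine and CAV1 fell by 1.19 on the log2 scale. Of the 5 expected to be low, ESR1 and PGR, the hormone receptors, were at 1.05 or less outside vehicle replicate 3, which had 51.7 and 33.2. ERBB2, EPCAM and GATA3 were measured well above 0, so that this list summed to 2292 to 2513 in vehicle and 1802 to 1957 after guadecitabine, with GATA3 higher and ERBB2 and EPCAM lower. That library stood apart in low transcripts, with 20 at 0 against 1593 to 2517 in the others. It also had the highest summed level of 3 leukocyte markers (238 normalized counts against 140 to 189) and of 3 endothelial markers (142 against 56.9 to 119). The 4 fibroblast markers summed to 1080 to 1416 in vehicle and to 2292 to 3049 after guadecitabine, through COL1A1, which rose, while COL1A2 and PDGFRB fell and DCN, a defining marker, was at 4.07 or less outside vehicle replicate 3. Their part in the ribosomal protein results was not tested. In bulk RNA, fewer cells of a type and less RNA per cell cannot be told apart.

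The share of reads taken by the ribosomal protein genes together differed between the conditions by less than the spread of the guadecitabine libraries. The members held 4.08%, 4.11% and 4.03% of reads in vehicle and 3.92%, 4.08% and 4.42% after guadecitabine, so that the groups overlapped. The means were 4.07% ± 0.0404 and 4.14% ± 0.256 (SD, n = 3 each), and the spread was wider after guadecitabine. The large subunit genes took 2.47% ± 0.0169 and 2.56% ± 0.166 of reads. The small subunit genes took 1.60% ± 0.0507 and 1.57% ± 0.0926. The median member lay between 0.12 below (guadecitabine replicate 1) and 0.13 above (guadecitabine replicate 3) its vehicle mean on the log2 scale.

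**Figure D1:**
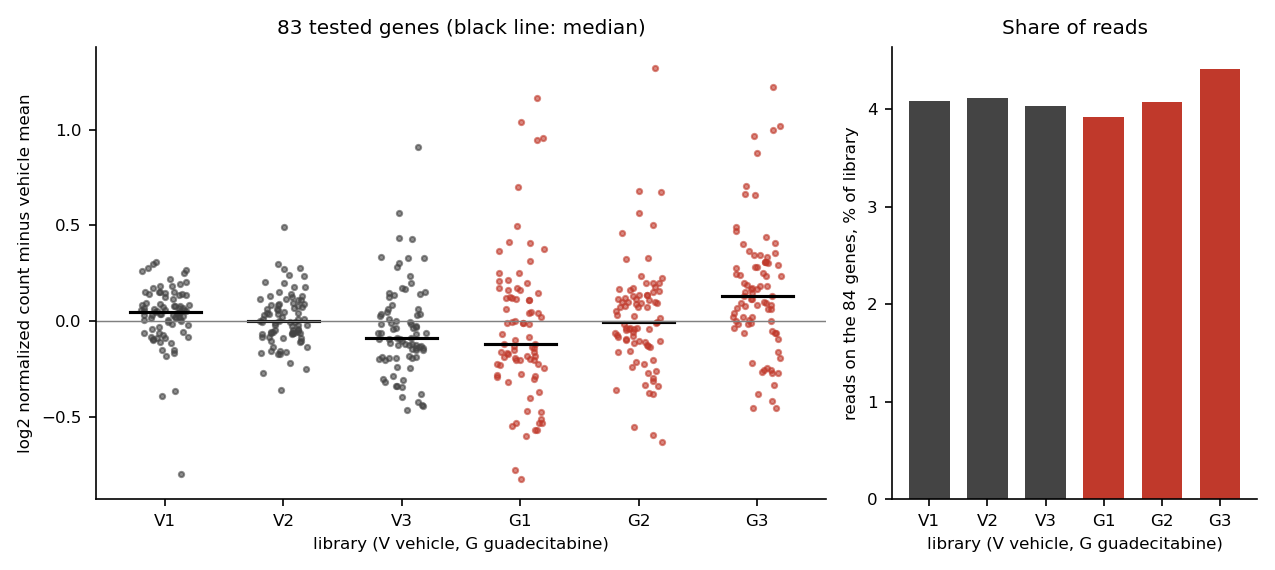
Left, log2 normalized count of each of the 83 tested ribosomal protein genes minus its vehicle mean, in each library (V vehicle, G guadecitabine, numbered by replicate), with the median as a black line. Right, the share of each library's reads on the 84 genes in percent, which ran from 3.92% to 4.42%.

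Levels of single members, given per kilobase of counted exon and averaged over the 6 libraries, spanned from 2.86 (RPL3L) to 58565 (RPL8) normalized counts, with a median of 9305. RPL8, a core protein of the large subunit, was followed by RPS16 (38093) and RPL37A (33169). RPL8 varied within each group, with 52179, 57755 and 36409 normalized counts in vehicle and 39596, 70788 and 50740 after guadecitabine. RPL3L, the RPL3 paralog of heart and skeletal muscle, had 0, 2 and 24 reads in vehicle and 2, 0 and 4 after guadecitabine, and was the 1 member too low to test. Its 24 reads came from the library that stood apart.

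Ribosomal protein genes have many processed pseudogenes, and a read that also matches one cannot be placed with certainty. Of all stretches of 50 bases in a member's transcript, a median of 66.5% occurred at no other place in the genome, here called unique. Spliced transcripts of other genes were not searched. The share was under 50% for 30 members and at least 80% for 38, and its Spearman correlation with the level per kilobase was 0.20 across the 84 genes, which are not independent replicates. The counted exon length was under 50% of the length of the closest GENCODE transcript for 5 members. These were RPL13A, RPL17, RPL21, RPL36A and RPS10. That transcript can differ from the RefSeq transcript that was counted. The same share was 246% for RPL37 and 189% for RPL13. For RPL21 counting covered 4 bp, with no unique stretch, and for RPS10 94 bp. Values of such members are uncertain, and how reads with several matches were treated is not given in the sources used here.

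Few ribosomal protein transcripts changed after guadecitabine. Of 83 tested, 9 (10.8%) passed an adjusted p of 0.05 by edgeR's quasi-likelihood test, where 37.7% of all 13322 genes tested did. RPL22L1, RPL7L1 and RPL27 rose, 3 members where 19.3% of all genes rose, and 6 members fell where 18.4% of all genes did, among them RPL10, RPL13A, RPL22, RPS20 and RPS6. The median log2 fold change of the members was 0.04, beside 0.02 for all genes, and the median size regardless of sign was 0.15, beside 0.38. All genes include transcripts with few reads, whose fold changes are less certain, and were not matched to the members for level. A further description without a test is that the groups did not overlap for 17 members (20.5%), 8 higher and 9 lower, against 51.7% of all genes, 26.6% higher and 25% lower. Without the vehicle library that stood apart, 14 members (16.9%) passed, 7 in each direction, and 7 of the 9 were among them, while 41.9% of all genes passed in that fit. Added there were RPL21, RPL36A, RPL41, RPS10, RPS12, RPS29 and RPS3. The values of RPL21, RPL36A and RPS10 are uncertain, as said above.

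**Figure D2:**
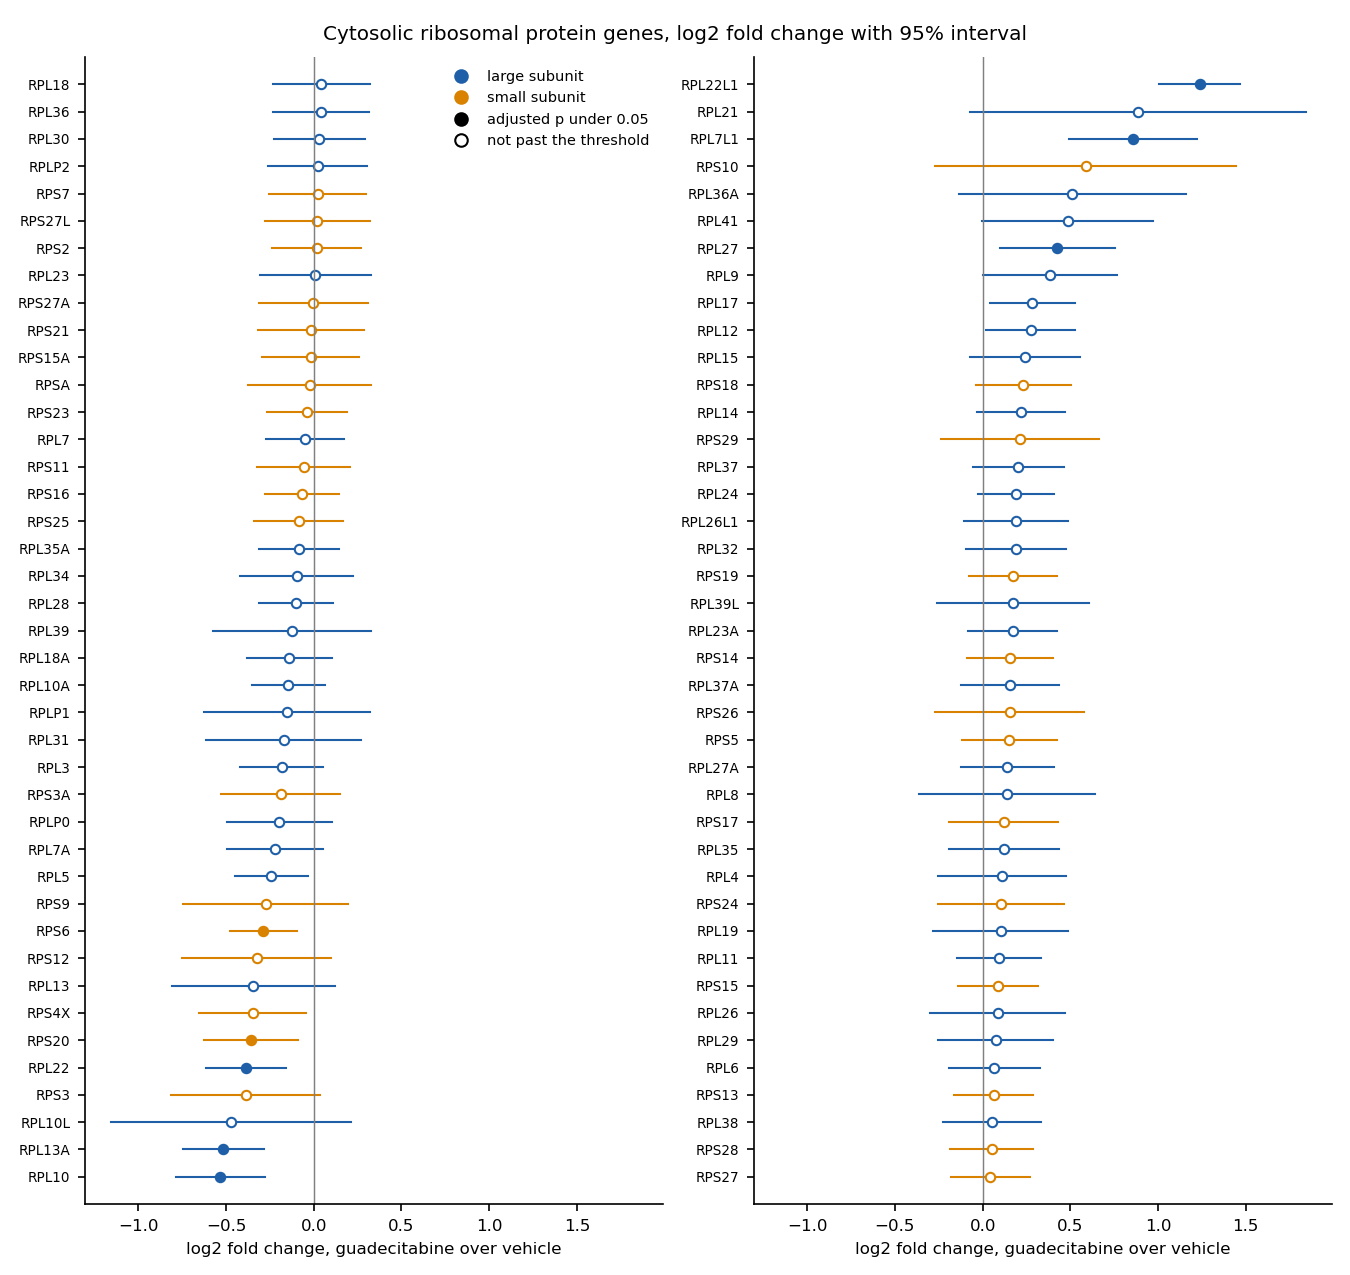
Log2 fold change (guadecitabine over vehicle) of 82 tested genes with 95% intervals, sorted by value and split over 2 columns, large subunit in blue and small subunit in orange. Filled points are the 8 genes drawn that are past an adjusted p of 0.05, and RPL22L1 is the only point beyond 1.

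In the large subunit, 3 members rose and 3 fell of 51 tested (19.3% and 18.4% over all genes), and the median was 0.08. In the small subunit, edgeR called 0 higher and 3 lower of 32, with a median of 0.01; at an unadjusted p under 0.05 there were 0 higher and 4 lower, and DESeq2 called 0 higher and 4 lower. The difference between the subunits was not tested. Without the vehicle library that stood apart, 2 small subunit members (RPS10 and RPS29) were called higher and 4 lower. No small subunit member was called by edgeR with no filter on low counts or without vehicle replicate 1, vehicle replicate 2, guadecitabine replicate 2 or guadecitabine replicate 3, though 2 to 4 were lower and 0 to 1 higher at an unadjusted p under 0.05. With the replicate number as a block, or without guadecitabine replicate 1, 1 was called lower.

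RPL22L1 had the largest change of any tested member. This paralog of RPL22, on chr3:170582665-170588045 with 4 exons, had 419, 402 and 437 normalized counts in vehicle and 940, 1051 and 979 after guadecitabine. Every guadecitabine library lay above every vehicle library by a wide margin. The mean rose from 419 ± 17.8 to 990 ± 56.4 (SD, n = 3), a log2 fold change of 1.24 (SE 0.102), or 2.36-fold, with an edgeR adjusted p of 2.88e-05. Its transcript is 98.9% unique in stretches of 50 bases. The call held in all 15 alternative settings, with log2 fold changes from 1.09 to 1.27.

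RPL22 itself, an RNA-binding protein of the large subunit on chr1:6245080-6259679, went the other way. It had 5088, 5137 and 4459 normalized counts in vehicle and 3784, 3868 and 3571 after guadecitabine, with no overlap. The log2 fold change was -0.39 (SE 0.101, edgeR adjusted p = 0.0149). The call was lost in 4 of 15 alternatives, where the filter on low counts was dropped or vehicle replicate 1, vehicle replicate 2 or guadecitabine replicate 3 was left out, and the highest adjusted p was 0.0803. RPL22 stayed the far more abundant transcript of the pair in every library.

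The ratio of a paralog to its partner is taken within a library and does not depend on scaling. RPL22L1 reads were 8.23%, 7.82% and 9.81% of RPL22 reads in vehicle and 24.8%, 27.2% and 27.4% after guadecitabine, a rise of 1.62 on the log2 scale, or 3.08-fold. The exact two-sided permutation p was 0.1, the smallest that 3 against 3 libraries allow, and 0.233 after Benjamini-Hochberg adjustment over 7 pairs. RPL7L1 reads went from 36.7%, 39.8% and 27.8% to 71.0%, 61.4% and 62.9% of RPL7 reads, a rise of 0.92 on the log2 scale with the same exact p. RPL39L reads went from 22.0%, 23.6% and 22.1% to 28.9%, 27.8% and 26.9% of RPL39 reads, by 0.30 on the log2 scale and again without overlap (exact p = 0.1). With this exact test of 3 against 3 libraries, no pair could pass a threshold of 0.05.

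**Figure D3:**
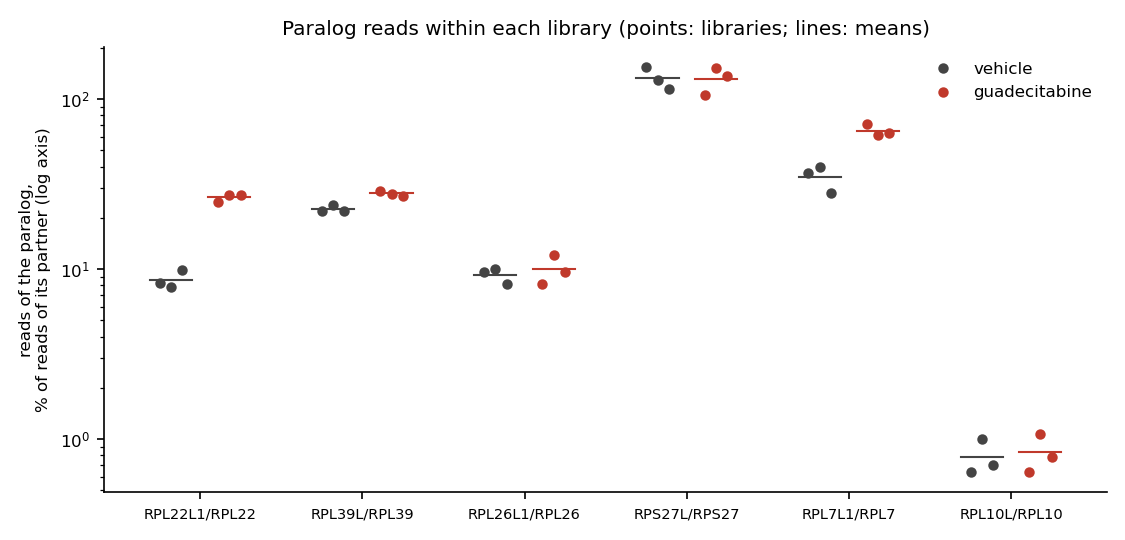
Reads of each paralog as a percentage of its partner's reads in each library (log axis), with points for libraries and lines for means; RPL3L/RPL3 is left out because RPL3L had 0 reads in some libraries. RPL22L1/RPL22, RPL39L/RPL39 and RPL7L1/RPL7 are separated between vehicle and guadecitabine, and the other 3 pairs overlap.

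The other 4 pairs overlapped between the groups. RPL26L1 was 8.20% to 9.95% of RPL26 in vehicle and 8.14% to 12.1% after guadecitabine (exact permutation p = 0.8). RPS27L, a stress-induced relative of RPS27, was 115% to 154% of it in vehicle and 105% to 153% after guadecitabine (exact permutation p = 0.9). Only 4.95% of the RPS27 transcript is unique, against 100% for RPS27L. The reads are not corrected for transcript length (352 bp for RPS27 and 923 bp for RPS27L), so which transcript is more abundant cannot be read from them. RPL10L, an intronless copy of RPL10 known from testis, was 0.638% to 1.00% of RPL10 and then 0.640% to 1.07% (exact permutation p = 0.7). RPL3L was 0% to 0.135% of RPL3 and then 0% to 0.0280% (exact permutation p = 0.9).

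In the pairs without overlap, RPL7L1 also passed the test as a single gene, as RPL22L1 and RPL22 did. RPL7L1, a relative of RPL7 on chr6:42847671-42854731, had 931, 968 and 662 normalized counts in vehicle and 1734, 1350 and 1547 after guadecitabine. All 3 guadecitabine libraries were above the vehicle libraries, with a log2 fold change of 0.86 (SE 0.162, edgeR adjusted p = 0.00313), and the call held in all 15 alternatives. Its transcript is 48.4% unique. RPL7 overlapped between the groups, with a log2 fold change of -0.05 and a 95% interval from -0.27 to 0.17. Of the RPL7 transcript, 33.7% is unique. Neither RPL39L, a paralog best known from testis (0.17, interval -0.26 to 0.60), nor RPL39, which lines the exit tunnel (-0.12, interval -0.57 to 0.33), passed the test, and only 6.16% of the RPL39 transcript is unique. RPL10L had 80.8, 130 and 74.0 normalized counts in vehicle and 51.8, 85.4 and 70.6 after guadecitabine, which overlap.

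RPL10, a late-joining protein close to the catalytic centre of the large subunit, fell. On chrX:153626406-153630680, it had 12679, 12955 and 10530 normalized counts in vehicle and 8090, 7941 and 8980 after guadecitabine. The groups did not overlap, and the log2 fold change was -0.53 (SE 0.112, edgeR adjusted p = 0.00543). RPL13A, also known for a role in silencing inflammatory transcripts when released from the ribosome, also fell. On chr19:49990811-49995564, it had 3757, 3899 and 3356 in vehicle and 2533, 2498 and 2674 after guadecitabine, a log2 fold change of -0.51 (SE 0.101, edgeR adjusted p = 0.00392). The counted exon length of RPL13A was 47.5% of that of its closest GENCODE transcript, which is 57.9% unique. Both calls held in all 15 alternatives.

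RPL27, on chr17:41150446-41154971, rose with more spread. It had 12052, 11097 and 11437 normalized counts in vehicle and 15325, 12330 and 18808 after guadecitabine, where the lowest was just above the highest vehicle library. The log2 fold change was 0.43 (SE 0.145, edgeR adjusted p = 0.0444), and the call was lost in 7 of 15 alternatives, with adjusted p-values up to 0.176. These were the fits without the filter on low counts, with the exon length offset, and without any 1 of the vehicle replicates, guadecitabine replicate 1 or guadecitabine replicate 3.

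The small subunit members that passed all fell, and by small amounts. RPS6, the substrate of the S6 kinases, on chr9:19376254-19380235, had 14555, 13985 and 14782 normalized counts in vehicle and 11820, 11749 and 11949 after guadecitabine. The groups were tight and apart, with a log2 fold change of -0.29 (SE 0.0854, edgeR adjusted p = 0.0268). RPS20, named after its values were seen, had 7445, 6534 and 5764 in vehicle and 4720, 5199 and 5486 after guadecitabine, a log2 fold change of -0.36 (SE 0.120, edgeR adjusted p = 0.0416). Each of these calls was lost in 7 of 15 alternatives, with adjusted p-values up to 0.104 and 0.185. Both were lost without the filter on low counts, with the replicate number as a block, and without vehicle replicate 1, vehicle replicate 2, guadecitabine replicate 2 or guadecitabine replicate 3. RPS6 was also lost without vehicle replicate 3, and RPS20 without guadecitabine replicate 1.

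**Figure D4:**
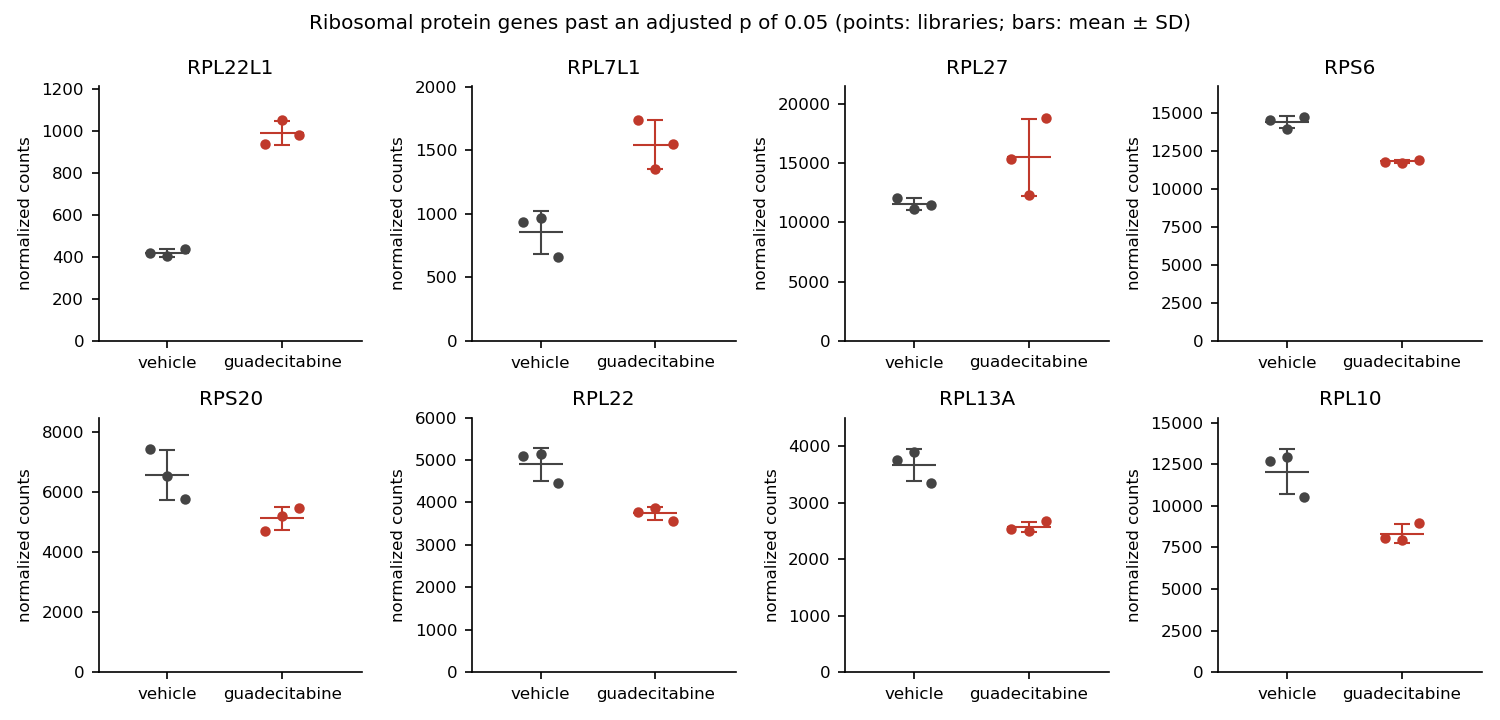
Normalized counts of 8 ribosomal protein genes past an adjusted p of 0.05 in each library (points), with mean and SD of 3 libraries (bars) and each axis starting at 0. In all 8 the vehicle and guadecitabine points do not overlap, by a wide margin for RPL22L1 and narrowly for RPL27 and RPS20.

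The remaining 74 tested members did not pass. For 51 of them the 95% interval of the log2 fold change lay within 0.5 of 0 in both directions, and for 23 it reached further. The members closest to the threshold were RPL17 (edgeR adjusted p = 0.0666), RPL5 (0.0684), RPS4X (0.0700) and RPL12 (0.0862). The widest interval belonged to RPL21, which had 19.0, 16.9 and 25.5 normalized counts in vehicle and 39.6, 32.5 and 41.3 after guadecitabine over its 4 counted bp (log2 fold change 0.89, interval -0.07 to 1.84).

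Among members with roles of their own, RPL5 and RPL11 carry the 5S RNA into the large subunit and bind MDM2. RPL5 had 10140, 10308 and 9558 normalized counts in vehicle and 8945, 8059 and 8381 after guadecitabine, which did not overlap (log2 fold change -0.24, interval -0.45 to -0.03). It passed by DESeq2 and with the GC content and exon length offsets. RPL11 overlapped between the groups, with a log2 fold change of 0.09 and an interval from -0.15 to 0.33. The stalk proteins recruit translation factors to the large subunit, and none of them passed. Their log2 fold changes were -0.20 for RPLP0 (interval -0.49 to 0.10), -0.15 for RPLP1 (-0.62 to 0.32) and 0.02 for RPLP2 (-0.26 to 0.31). RPSA, also known as the laminin receptor, was at -0.02 (-0.37 to 0.33), and RPS27A, made as a fusion with ubiquitin, was at -0.0025 (-0.31 to 0.31).

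What the symbol rule did not use was set beside the changes. Of the 41 members with the tract shown above, 4 passed (1 higher, 3 lower) and the median log2 fold change was 0.04. Of the 24 without it, 3 passed (2 higher, 1 lower) and the median was 0.09. RPL22L1 and RPL22 both have the tract and moved in opposite directions. Across the 83 tested members, which are not independent replicates, the Spearman correlation of log2 fold change was -0.08 with GC content, -0.18 with counted exon length and -0.10 with the unique share. Of 37 tested members at least 80% unique, 4 passed. Beside these counts and those by tract, 10.8% of all tested members and 37.7% of all genes passed.

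Related gene lists were read from the same fit. Of 4 other cytosolic ribosome genes measured, FAU, which encodes RPS30 fused to a ubiquitin-like protein, rose by 0.45 on the log2 scale (edgeR adjusted p = 0.0102). Ribosome biogenesis factors assemble the subunits, and 28 of 58 rose and 2 fell, with a median log2 fold change of 0.39. Of all genes, 19.3% rose and 18.4% fell. BYSL, for the small subunit, rose from 2818, 2766 and 2274 to 4806, 5742 and 5675 normalized counts, by 1.05 on the log2 scale (edgeR adjusted p = 0.000224). LSG1, a GTPase of late large subunit assembly, rose by 0.96, while UBTF, a factor of RNA polymerase I, had -0.34 and the polymerase subunit POLR1D -0.37, both lower. Leaving out vehicle replicate 1 reduced the number of biogenesis factors that rose to 16, and the number over all genes from 2576 to 1802.

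Of 77 mitochondrial ribosomal proteins, which make up the separate ribosome of the mitochondrion, 17 rose and 6 fell, with a median of 0.07. Called in either direction were 29.9% of them, beside 37.7% of all genes (19.3% higher and 18.4% lower). MRPL32 (0.89) and MRPS25 (0.83) rose, and MRPL23 (-0.73) and MRPL48 (-0.63) fell. The number that rose was 11 with no filter on low counts, 9 without vehicle replicate 1, 5 without vehicle replicate 2, 10 without vehicle replicate 3 and 4 without guadecitabine replicate 3. In the same fits, in this order, 2332, 1802, 1840, 3002 and 1706 of all genes rose, beside 2576 in the main fit. Of 21 translation factors and other proteins with TOP mRNAs, 1 rose and 3 fell (19.0% called, beside 37.7% of all genes), with a median of 0.00307. EIF3K rose by 0.32. BTF3 and NACA, which form the complex that meets nascent chains, had -0.54 and -0.31, and the initiation factor EIF4B -0.50, all 3 lower.

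Of 14 tested regulators of ribosomal protein synthesis, edgeR called 0 higher and 2 lower (14.3%), where 19.3% of all genes were called higher and 18.4% lower. At an unadjusted p under 0.05 there were 1 higher and 2 lower, and DESeq2 called 0 higher and 2 lower. Over all 13322 genes the unadjusted counts were 3239 higher and 3046 lower, and those of DESeq2 were 2716 and 2615. RPTOR, the scaffold of mTORC1, had 1556, 1713 and 1373 normalized counts in vehicle and 758, 805 and 786 after guadecitabine, a log2 fold change of -0.98 (edgeR adjusted p = 0.000194). TSC2, a brake on mTORC1, had -0.75. The median of this list was 0.02.

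**Figure D5:**
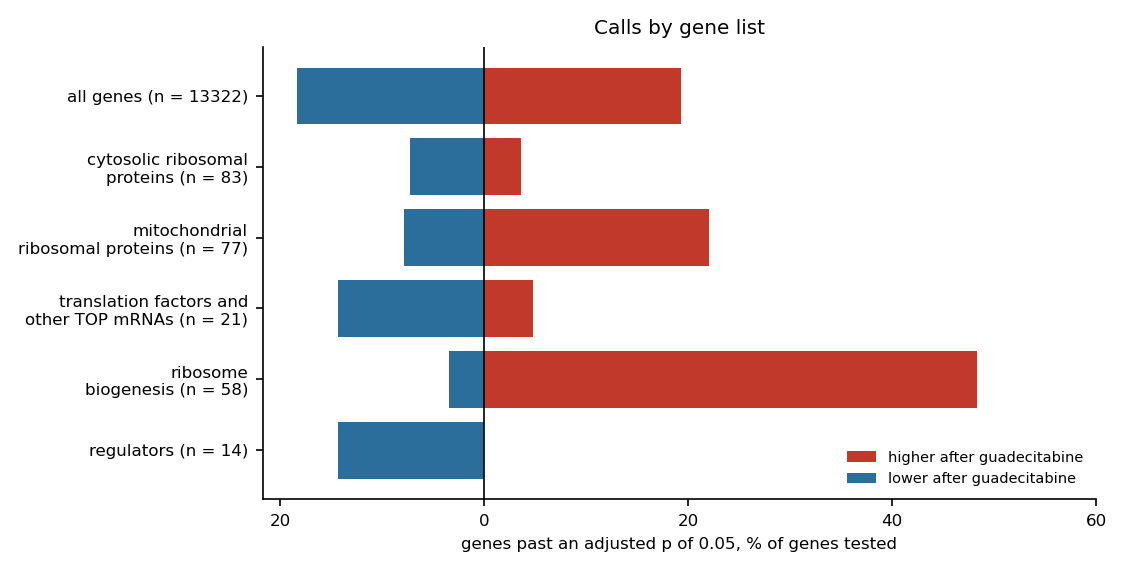
Percentage of tested genes past an adjusted p of 0.05, higher (red, to the right) and lower (blue, to the left) after guadecitabine, for all 13322 genes and for 5 lists. Cytosolic ribosomal proteins were called in 3.61% higher and 7.23% lower, and ribosome biogenesis factors, with 28 of 58 higher, have the longest bar.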

How the data were processed

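RNA was sequenced from 3 vehicle and 3 guadecitabine cultures of MDA-MB-231 (TruSeq, HiSeq), described as independent experiments. Alignment by the authors was to hg19, with STAR 2.3.1z in the submitters' processing notes, and they deposited raw counts of reads in exons of RefSeq transcripts from iRNA-seq, with 1 transcript per gene symbol. Strand use and the treatment of reads with several matches are not given in the sources used here. The deposited log2 values and the columns of the authors' own comparison were not used. Counts of all transcripts were filtered (filterByExpr, minimum count 10), scaled with TMM and tested with edgeR 4.0.16 quasi-likelihood in R 4.3.3, with Benjamini-Hochberg adjustment over 13322 genes, a threshold of 0.05 and the group as the only term. Normalized counts are counts scaled to the mean library total of the tested genes after TMM, and SE and 95% intervals come from the same fit. Paralog ratios used raw counts with 0.5 added and an exact permutation test. The edgeR p-values set the group difference against the spread between these libraries, estimated with help from all genes. The exact permutation p is the share of groupings of the libraries with a difference at least as large in size. Where a gene's reads could also match pseudogenes or overlapping genes, the counts cannot be told apart.

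Uniqueness, GC content and transcript length came from GRCh37 with GENCODE v44lift37. On 13225 genes simulated for guadecitabine against vehicle, with 200 changed by 1 on the log2 scale, edgeR recovered 174 with 6 false calls and DESeq2 recovered 174 with 14. Alternatives were the replicate number as a block, DESeq2 1.42.0, DESeq2 size factors, library totals, TMM without the members, no filter, at least 10 counts in every library, an exon length offset, each library left out and, chosen after seeing the data, GC content and exon length offsets. Named genes were both genes of each paralog pair, the 5 members with the lowest p in each direction, the 3 highest per kilobase, RPLP0, RPLP1, RPLP2, RPSA, RPL5, RPL11, RPS6, RPS27A and, of each other list, the 2 with the lowest p in each direction among those called. RPS20, RPL21, RPS4X, NACA and others named outside this rule were chosen after their values were seen. The members and lists were chosen with earlier results of these data known. Values of 1 member are not reported here, and it is not drawn among the named genes, but it is kept in all counts.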

Additional observations from a re-analysis of the deposited data

How the results depend on the processing

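The number of members called was 8 to 11 in the settings that kept all libraries and a filter, and 4 with no filter, where 2 rose and 2 fell. Leaving out 1 library gave 2 to 7 higher and 2 to 7 lower. RPL22L1, RPL7L1, RPL10 and RPL13A passed in all 15 alternatives. The numbers of called genes were also checked with the replicate number as a block. Same-numbered libraries did not deviate together (correlations -0.05, 0.05 and -0.04), and 2 of 6 libraries correlated best with their own number. With 3 libraries per group, this cannot show whether the number marks a pairing. The block gave 4 higher and 4 lower members, 6 of them among the 9, with RPS27A at 0.000365. It called 0 translation factors with TOP mRNAs higher and 1 ribosome biogenesis factor lower. Translation factors higher were 2 with DESeq2, library totals or at least 10 counts in every library, 0 with DESeq2 size factors, no filter or the exon length offset, and 0 to 1 without 1 library. Ribosome biogenesis factors lower were 1 with library totals, 0 with no filter and 0 to 2 without 1 library. Those higher were 16 to 32 without 1 library, and 27 to 37 in the other alternatives. Mitochondrial ribosomal proteins higher were 11 with no filter and 4 to 21 without 1 library, and those lower were 11 with GC content and exon length offsets. Regulators higher were 1 with the exon length offset, 2 with both offsets and 0 to 1 without 1 library. Of the other cytosolic ribosome genes, 1 was lower with both offsets and 0 to 1 higher without 1 library. All genes higher were 1706 to 3002 and lower 1629 to 2575 without 1 library. Log2 fold changes near 0 changed sign: RPS27A was 0.035 with library totals, 0.0102 with no filter and 0.00223 with at least 10 counts in every library, RPSA was 0.018 with library totals, RPLP2 was -0.00178 with the exon length offset, and RPL26, RPS27L and RPS27 were -0.0265, -0.0575 and -0.00533 with both offsets. Without 1 library, RPL39 ranged from -0.27 to 0.0575, RPSA from -0.17 to 0.071, RPS27A from -0.11 to 0.0894, RPL26 from -0.0369 to 0.27, RPS27L from -0.0681 to 0.13, RPL8 from -0.11 to 0.32, RPLP2 from -0.0648 to 0.11 and RPL7 from -0.0832 to 0.00218. The cause was not tested. Guadecitabine replicate 2 was the shallowest library, and RPL3L was too low to test in all settings with a filter.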
